A study of Homo sapiens with 4 samples.

Results

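Cancer-testis antigens are proteins normally made in germ cells of the testis and made again by some tumours, and their largest families lie in clusters of near-identical copies on the X chromosome. The families described here are MAGEA, MAGEB, MAGEC, PAGE, XAGE, GAGE, SSX and CTAG. Members were the protein-coding genes whose symbols begin with one of these family names followed by a number, which gave 61 genes of 58884 gene IDs in the table. Near-identical copies were summed, for example MAGEA3 with MAGEA6 and all 13 GAGE genes, which left 40 members. All of them lie on the X chromosome.

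RNA was sequenced from B-CPAP and TPC-1, established human lines of papillary thyroid carcinoma, at 40 °C and at 37 °C, to ask how transient thermal stress affects thyroid cancer cells. There were 4 libraries, B-CPAP at 40 °C, B-CPAP at 37 °C, TPC-1 at 40 °C and TPC-1 at 37 °C, with 1 library of each. All were grown in T25 flasks held submerged at their temperature, and the labels give the exposure as 15 min, 20 min or 24 h in different places. The labels do not say whether libraries came from separate cultures, so no value below carries a spread between cultures of a group.

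The promoters of these genes are methylated and silent in most adult tissues, and loss of DNA methylation is the best known way in which tumours come to transcribe them. Type I MAGE proteins bind RING-type ubiquitin ligases such as TRIM28 and alter what they target. SSX proteins act with Polycomb complexes on chromatin, and CTAG and MAGEA proteins supply peptides that T cells recognise.

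The deposited values are TPM, a measure of transcript abundance scaled to gene length and library total. TPM multiplied by annotated exon length gave an estimated depth of 23232350 and 24466576 reads in B-CPAP at 40 and 37 °C, and of 20704722 and 22054713 reads in TPC-1 at 40 and 37 °C. Mitochondrially encoded genes took 23.9% and 22.0% of TPM in B-CPAP at 40 and 37 °C, and 19.9% and 16.8% in TPC-1 at 40 and 37 °C. The thyroid transcription factor PAX8 was present in every library, at 98.9 and 112 TPM in B-CPAP and 267 and 284 TPM in TPC-1 at 40 and 37 °C. Of 6 epithelial markers, KRT7 and KRT8 were higher and KRT18 lower in B-CPAP, with KRT18 at 183 and 234 TPM in B-CPAP and 236 and 283 TPM in TPC-1 at 40 and 37 °C. EPCAM, KRT19 and CDH1 reached at most 1.99 TPM in any library. The follicular iodide transporter gene SLC5A5 was listed at 0 in all 4. Markers of germ cells reached at most 0.07 TPM in B-CPAP and 0.271 TPM in TPC-1, and DAZL, SYCP1, PRM1, PRM2 and TNP1 were listed at 0 in all 4. Of 6 fibroblast markers, 4 were tested between the lines and all 4 were higher in B-CPAP. COL1A2, COL3A1 and LUM passed the filter through B-CPAP alone, so that their direction was fixed by it, and 29.9% of all tested genes were higher. The summed level over the 6 was 42.1 and 33.9 TPM in B-CPAP and 2.87 and 2.98 TPM in TPC-1 at 40 and 37 °C. COL3A1 and LUM were listed at 0 in both TPC-1 libraries, and the part of these markers in the differences between lines was not tested. Leukocyte markers reached at most 0.434 TPM in B-CPAP and 1.36 TPM in TPC-1.

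B-CPAP transcribed members of 6 of the 8 families, and TPC-1 transcribed almost none. Summed over all 61 genes, the families reached 1486 TPM in B-CPAP at 40 °C and 1279 TPM at 37 °C. The same sum in TPC-1 was 2.04 TPM at 40 °C and 0.836 TPM at 37 °C. These sums were 0.149% and 0.128% of all TPM in B-CPAP, and 0.000204% and 8.36e-05% in TPC-1. In estimated reads they came to 12935 and 12252 in B-CPAP at 40 and 37 °C, against 21 and 8 in TPC-1 at 40 and 37 °C.

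A member was counted as on in a line at 1 TPM or more in both of its libraries, as off below 0.1 TPM in both, and as a trace otherwise. By this count 13 of the 40 members were on, 14 were a trace and 13 were off in B-CPAP. In TPC-1 0 were on, 4 were a trace and 36 were off. Of the 61 single genes, 34 had a value above 0 in a B-CPAP library and 7 in a TPC-1 library. Both lines are bulk samples, and fewer cells making a transcript cannot be told apart from less transcript per cell.

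**Figure D1:**
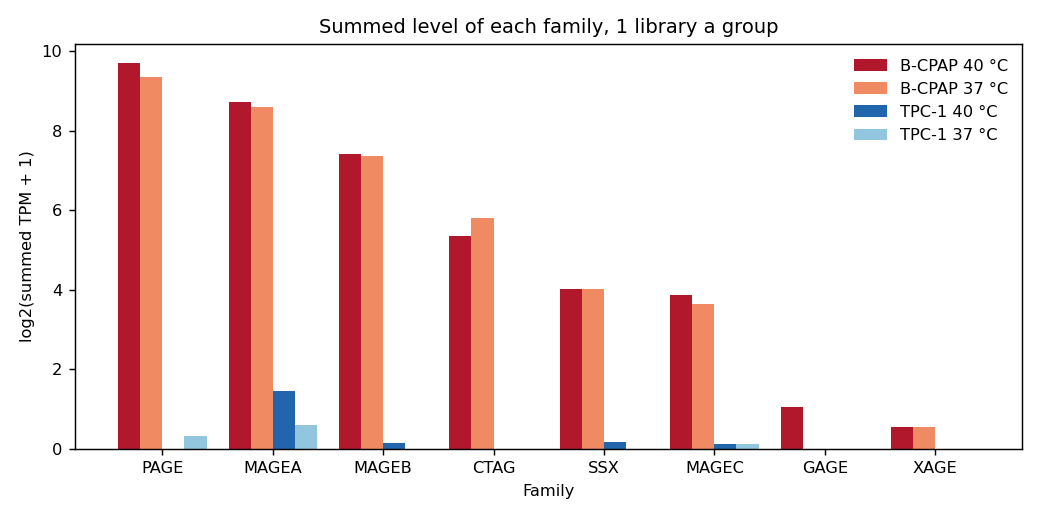
Summed TPM of each cancer-testis family in each of the 4 libraries, with B-CPAP before TPC-1 and 40 °C before 37 °C. PAGE and MAGEA hold most of the signal in B-CPAP, and every family is near or at 0 in TPC-1.

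PAGE was the highest family, with 827 TPM in B-CPAP at 40 °C and 652 TPM at 37 °C, and 0 and 0.251 TPM in TPC-1. MAGEA followed with 421 and 383 TPM in B-CPAP at 40 and 37 °C, against 1.73 and 0.502 TPM in TPC-1. Together PAGE and MAGEA made up 83.9% of the summed level of all families in B-CPAP at 40 °C and 80.9% at 37 °C. MAGEB gave 168 and 162 TPM in B-CPAP at 40 and 37 °C, against 0.107 and 0 TPM in TPC-1. CTAG gave 40.0 and 55.1 TPM in B-CPAP and was listed at 0 in both TPC-1 libraries. SSX and MAGEC were lower, at 15.1 TPM in both B-CPAP libraries for SSX and at 13.5 and 11.5 TPM in B-CPAP at 40 and 37 °C for MAGEC. GAGE and XAGE had no member that was on in either line.

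Listed levels were uneven within families, and a single member usually carried the family sum. In B-CPAP, MAGEB2 carried 98.7% of the MAGEB sum, CTAG2 99.9% of the CTAG sum, MAGEC2 99.6% of the MAGEC sum and SSX1 91.3% of the SSX sum. PAGE was split between PAGE2 with its copy PAGE2B, at 55.8%, and PAGE5. MAGEA was the broadest family, with 6 of its 9 members on. Some low members, among them SSX2, SSX4 and CTAG1A, share all or most of their sequence with other genes. Reads that match several genes may be missing from their values, so these shares are of the listed values.

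**Figure D2:**
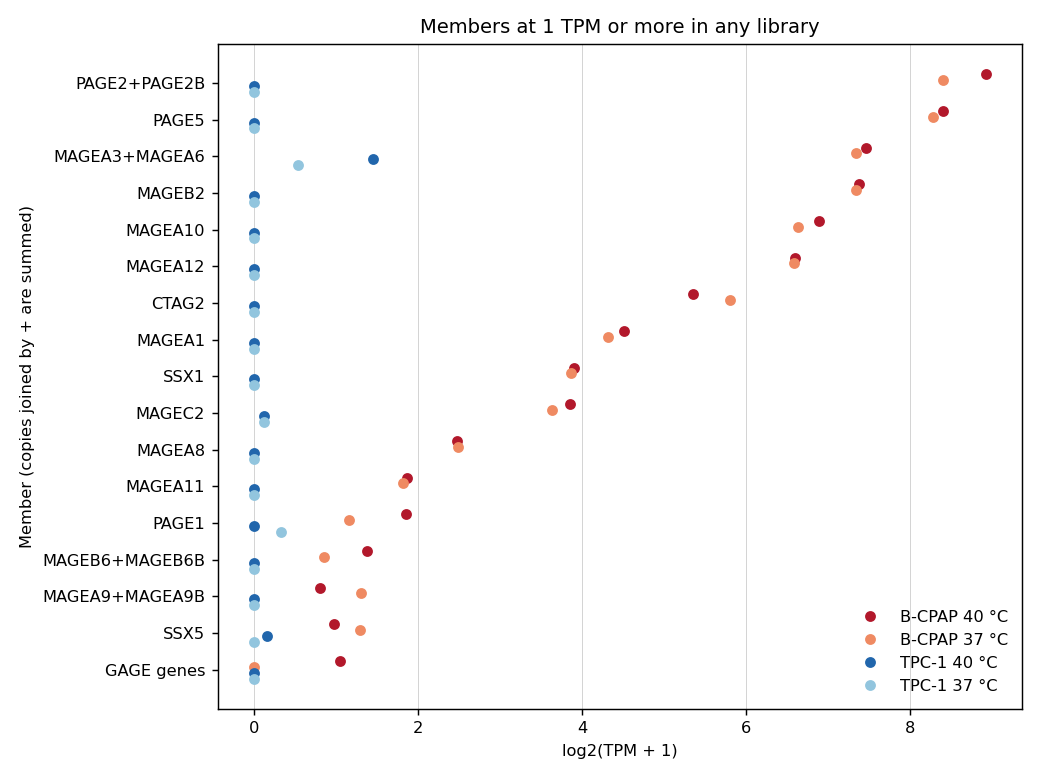
Level of the 17 members at 1 TPM or more in any library, in each of the 4 libraries on a log2(TPM + 1) scale. The 13 members that are on in B-CPAP are lower in both TPC-1 libraries, where MAGEA3 with MAGEA6 is the highest of them.

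The PAGE genes encode small acidic proteins related to GAGE. In GENCODE 29 on GRCh38, PAGE2 lies at chrX:55089008-55092842 and PAGE5 at chrX:55220355-55224108, both on the plus strand, with PAGE2B at chrX:55075063-55078909. PAGE2 with PAGE2B reached 487 TPM in B-CPAP at 40 °C and 339 TPM at 37 °C and was listed at 0 in both TPC-1 libraries. PAGE5 reached 337 TPM in B-CPAP at 40 °C and 311 TPM at 37 °C and was likewise listed at 0 in TPC-1. PAGE1 was far lower, at 2.60 TPM (12 reads) in B-CPAP at 40 °C and 1.22 TPM (6 reads) at 37 °C, and at 0 and 0.251 TPM (1 read) in TPC-1. PAGE3 stayed between 0.188 and 0.706 TPM in B-CPAP and was at 0 in TPC-1. PAGE4, a disordered protein studied in prostate, was at 0 in all 4 libraries. PAGE2 with PAGE2B ranked 215th at 40 °C and 355th at 37 °C among all protein-coding genes of B-CPAP.

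The 2 PAGE2 copies differed almost completely in level although their products are near-identical. PAGE2 held 487 and 339 TPM in B-CPAP at 40 and 37 °C, and PAGE2B held 0.282 TPM at 40 °C and 0 at 37 °C. Their translated reading frames matched at 96.8% of 94 aligned positions. Of the 100-base words in their transcripts, 80.6% in PAGE2 and 74.7% in PAGE2B were found in no other annotated gene. Their promoter windows, 250 bases before to 50 bases after the start in RefSeq (GRCh38.p14), are given 5′ to 3′ because one copy was abundant and the other near 0. Capitals mark letters that differ from, or are missing in, the other copy over the 303 columns in which the windows align. Letters past the ends of the other window stay in lower case.
PAGE2, chrX:55088768-55089067, plus strand: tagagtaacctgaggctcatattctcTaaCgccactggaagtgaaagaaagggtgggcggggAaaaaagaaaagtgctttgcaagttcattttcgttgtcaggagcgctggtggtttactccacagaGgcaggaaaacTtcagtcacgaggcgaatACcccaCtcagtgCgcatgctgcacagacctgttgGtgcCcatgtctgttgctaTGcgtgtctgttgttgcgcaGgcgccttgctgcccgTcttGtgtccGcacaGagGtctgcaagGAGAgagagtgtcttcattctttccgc
PAGE2B, chrX:55074780-55075079, plus strand: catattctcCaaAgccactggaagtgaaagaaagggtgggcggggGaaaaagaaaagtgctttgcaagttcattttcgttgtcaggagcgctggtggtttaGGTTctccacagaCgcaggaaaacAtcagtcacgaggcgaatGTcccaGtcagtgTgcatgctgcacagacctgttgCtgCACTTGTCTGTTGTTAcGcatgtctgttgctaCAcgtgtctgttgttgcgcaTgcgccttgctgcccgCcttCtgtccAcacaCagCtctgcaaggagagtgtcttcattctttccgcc
The windows were 85.8% identical, with 19 mismatched and 24 gapped columns, and held 13 CpG sites in PAGE2 and 12 in PAGE2B. The CpG counts of the transcribed and the near-silent copy thus differed by 1 site.

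MAGEA3 and MAGEA6 bind TRIM28 and direct it to new substrates. MAGEA3 lies at chrX:152698752-152702347 on the plus strand and MAGEA6 at chrX:152766136-152769747 on the minus strand (GRCh38). Together they reached 176 TPM in B-CPAP at 40 °C and 161 TPM at 37 °C, and 1.73 TPM (18 reads) and 0.448 TPM (5 reads) in TPC-1. Of the 13 members that were on in B-CPAP, this was the one with the most reads in TPC-1, where the other 12 had at most 1 read per library. MAGEA6 gave 159 and 145 TPM in B-CPAP at 40 and 37 °C, and 0.557 and 0.355 TPM in TPC-1. MAGEA3 gave 17.2 and 15.4 TPM in B-CPAP at 40 and 37 °C, and 1.17 and 0.0933 TPM in TPC-1. In B-CPAP the level of MAGEA6 was 9.22 times that of MAGEA3 at 40 °C (95% counting interval 8.01 to 10.7) and 9.44 times at 37 °C (8.16 to 10.9). In TPC-1 at 40 °C the ratio was 0.476, with an interval of 0.148 to 1.38 that includes equal levels. These 2 genes share 98.1% of coding bases, and 65.1% of MAGEA3 and 67.0% of MAGEA6 100-base words were found in no other gene. How the authors' counting treated reads that match both copies is not given in the sources used here, so the split between them is uncertain and the sum is the firmer value.

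The other MAGEA members with high levels were at 0 in TPC-1. MAGEA10, a T cell target in several tumours, reached 118 TPM in B-CPAP at 40 °C and 98.5 TPM at 37 °C. MAGEA12 reached 95.9 and 94.8 TPM and MAGEA1, the first cancer-testis antigen to be cloned, 21.8 and 18.9 TPM in B-CPAP at 40 and 37 °C. MAGEA8 stood at 4.54 and 4.59 TPM. MAGEA11, a coregulator of the androgen receptor, stood at 2.64 and 2.51 TPM in B-CPAP at 40 and 37 °C. All 4 of these genes were listed at 0 in both TPC-1 libraries, as was MAGEA10. MAGEA9 with MAGEA9B crossed 1 TPM in 1 library, with 0.748 TPM in B-CPAP at 40 °C and 1.46 TPM at 37 °C. MAGEA2 with MAGEA2B lay at 0.802 and 0.634 TPM in B-CPAP. MAGEA4, which binds RAD18, was at 0 TPM in B-CPAP at 40 °C and 0.391 TPM (9 reads) at 37 °C, and at 0 and 0.0537 TPM (1 read) in TPC-1.

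In MAGEB, MAGEB2 (chrX:30215560-30220089, plus strand), which has been linked to stress granule control, was on at 166 TPM in B-CPAP at 40 °C and 161 TPM at 37 °C and listed at 0 in TPC-1. Its neighbours MAGEB3 and MAGEB4 were at 0 in all 4 libraries and MAGEB1, which overlaps MAGEB4, was at 0.068 TPM in B-CPAP at 37 °C alone. MAGEB6 with MAGEB6B gave 1.58 TPM in B-CPAP at 40 °C and 0.797 TPM at 37 °C. MAGEB6 and MAGEB6B are less alike than the other summed copies, with 80.3% identical residues over 407. MAGEB10, MAGEB16 and MAGEB18 ranged from 0.0789 to 0.648 TPM in B-CPAP. MAGEB17 had a value only in TPC-1 at 40 °C, at 0.107 TPM. MAGEC2 (chrX:142202345-142205290, minus strand), which also binds TRIM28, gave 13.5 TPM in B-CPAP at 40 °C and 11.4 TPM at 37 °C, and 0.0868 and 0.0829 TPM (1 read each) in TPC-1. MAGEC1 reached at most 0.0945 TPM.

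SSX1, a gene fused to SS18 in synovial sarcoma, gave 14.0 TPM in B-CPAP at 40 °C and 13.5 TPM at 37 °C and was listed at 0 in TPC-1. SSX5 gave 0.963 and 1.44 TPM in B-CPAP at 40 and 37 °C, and 0.117 TPM (1 read) and 0 in TPC-1, and SSX7 lay at 0.109 and 0.102 TPM in B-CPAP. CTAG2 (chrX:154651972-154653579, minus strand), also called LAGE-1, reached 40.0 TPM in B-CPAP at 40 °C and 54.9 TPM at 37 °C. Its relatives CTAG1A and CTAG1B, which encode NY-ESO-1, summed to 0 and 0.134 TPM in B-CPAP at 40 and 37 °C, and all 3 genes were listed at 0 in TPC-1. CTAG1A and CTAG2 products were 85.6% identical over 180 residues, and 75.5% of CTAG2 100-base words were found in no other gene. For CTAG1A and CTAG1B these shares were 14.7% and 15.1%. Their level near 0 may therefore miss reads that match several genes. GAGE10 was the GAGE gene with a value above 0, at 1.06 TPM (4 reads) in B-CPAP at 40 °C and 0 in the other 3 libraries. XAGE2 and XAGE1A with XAGE1B stayed at or below 0.456 TPM in B-CPAP.

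Listed at 0 in all 4 libraries were 26 genes, or 10 summed members, namely MAGEB3, MAGEB4, MAGEB5, MAGEC3, PAGE4, SSX2 with SSX2B, SSX3, SSX4 with SSX4B, XAGE3 and XAGE5. The remaining genes at 0 were 12 of the 13 GAGE genes, XAGE1B and CTAG1B. A 0 has different weight for copies that share their sequence. Under 50% of 100-base words were found in no other gene for 23 of the 61 genes, 11 of them GAGE genes, and for 10 genes, among them SSX2, SSX4 and SSX4B, there was no such word. None of these 23 genes was on in B-CPAP, and their highest value was 1.46 TPM. All 14 single genes that were on had at least 65.1% unique 100-base words. Of the 38 genes at or above 50% by these words, 12 were off in B-CPAP, and 9 of those 38 were at 0 in all 4 libraries. With 50-base words MAGEA3 (43.5%) and MAGEA6 (46.1%), both on in B-CPAP, fell under 50%. The split between genes that were on and genes with little unique sequence thus depends on the word length.

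**Figure D3:**
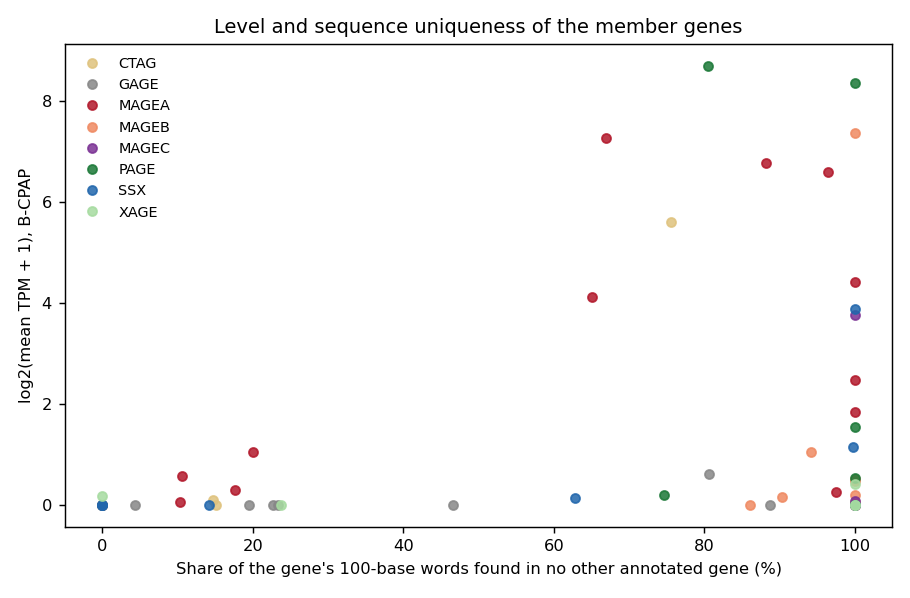
Share of a gene's 100-base words found in no other annotated gene (percent) against its mean level in B-CPAP on a log2(TPM + 1) scale, 1 point per gene for 61 genes. No gene under 50% unique 100-base words is above 1.46 TPM, while genes with mostly unique words are found from 0 up to the highest level. With 50-base words, not drawn here, MAGEA3 (43.5%) and MAGEA6 (46.1%) are under 50% and on in B-CPAP.

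**Figure D4:**
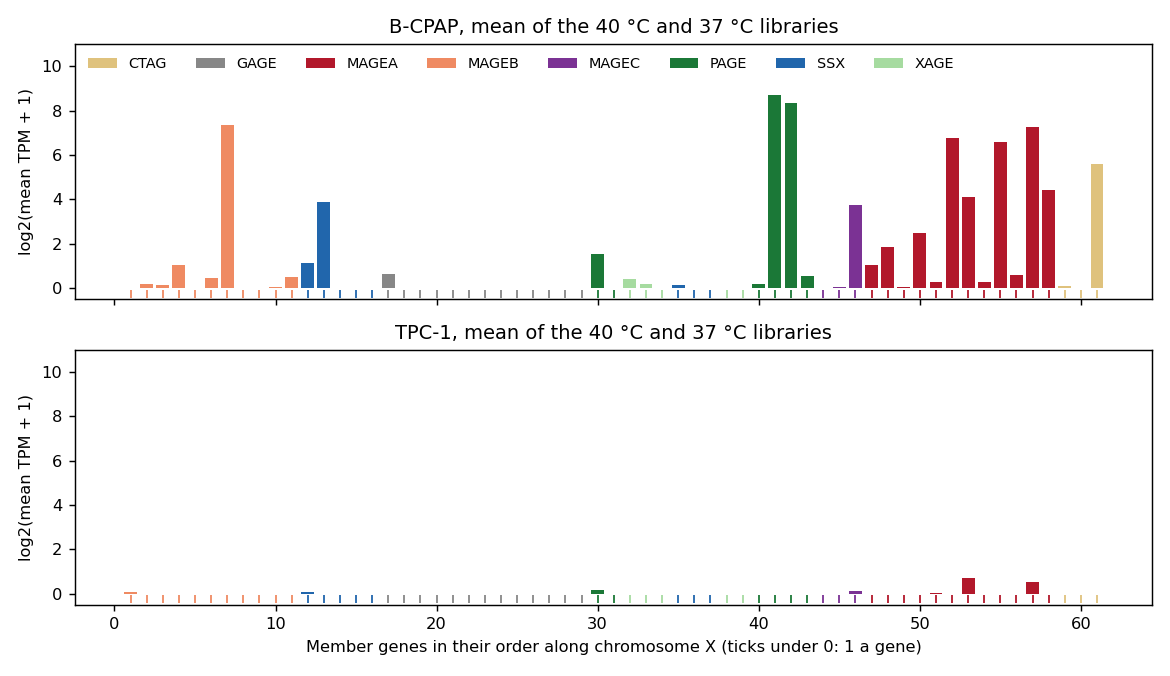
Mean level of the 61 genes in each line on a log2(TPM + 1) scale, in their order along the X chromosome and coloured by family, with B-CPAP above TPC-1. Transcribed and silent members stand side by side in B-CPAP, and the TPC-1 panel is almost empty.

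Neighbours along the X chromosome differed sharply in level in B-CPAP. Between MAGEA3 and MAGEA6 lie MAGEA2, MAGEA2B, MAGEA12 and the CSAG genes, another cancer-testis family. CSAG1, beside MAGEA12 on the opposite strand, reached 134 and 131 TPM in B-CPAP at 40 and 37 °C, and CSAG2 and CSAG3 reached 8.66 to 11.5 TPM, with all 3 listed at 0 in TPC-1. MAGEA2 and MAGEA2B in the same block stayed below 1 TPM. CETN2, a centriole gene 57226 bases beyond MAGEA6, was present in both lines, at 39.7 and 35.9 TPM in B-CPAP and 114 and 115 TPM in TPC-1 at 40 and 37 °C. GABRQ, 41218 bases from MAGEA3 on the other side, gave 1.72 and 1.51 TPM in B-CPAP and was listed at 0 in TPC-1. Within the PAGE block FAM104B, which is no cancer-testis gene, gave 15.4 and 16.3 TPM in B-CPAP and 11.7 and 9.73 TPM in TPC-1 at 40 and 37 °C. Beyond PAGE3, the type II MAGE gene MAGEH1 gave 32.2 and 31.1 TPM in B-CPAP and 0.474 and 0.113 TPM in TPC-1. APEX2, on the other side of the PAGE block, gave 84.95 and 104.6 TPM in B-CPAP and 37.46 and 39.72 TPM in TPC-1 at 40 and 37 °C. Near MAGEB2, the nuclear receptor gene NR0B1 gave 22.7 and 22.9 TPM in B-CPAP and was listed at 0 in TPC-1. IL1RAPL1, on the other side of MAGEB2, gave 2.03 and 1.17 TPM in B-CPAP and was also listed at 0 in TPC-1.

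Promoter windows were found in RefSeq (GRCh38.p14) for 53 of the 61 genes; CTAG1A, CTAG1B, CTAG2, GAGE2E, MAGEA1, MAGEA10, MAGEB17 and SSX3 were not matched. The windows of 4 MAGE genes are given 5′ to 3′ since these genes were on in B-CPAP and their windows share a short run of letters. The window of MAGEA12 is 1 of its 2. Capitals mark GGATGT, letters around the GGAT core that ETS factors can bind.
MAGEA6, chrX:152769640-152769939, minus strand: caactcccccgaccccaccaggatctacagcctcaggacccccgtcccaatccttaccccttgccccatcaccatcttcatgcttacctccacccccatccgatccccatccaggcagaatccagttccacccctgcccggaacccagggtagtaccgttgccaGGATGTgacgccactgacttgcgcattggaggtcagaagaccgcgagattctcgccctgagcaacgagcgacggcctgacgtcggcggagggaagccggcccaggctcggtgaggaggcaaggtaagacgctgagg
MAGEA12, chrX:152733507-152733806, plus strand: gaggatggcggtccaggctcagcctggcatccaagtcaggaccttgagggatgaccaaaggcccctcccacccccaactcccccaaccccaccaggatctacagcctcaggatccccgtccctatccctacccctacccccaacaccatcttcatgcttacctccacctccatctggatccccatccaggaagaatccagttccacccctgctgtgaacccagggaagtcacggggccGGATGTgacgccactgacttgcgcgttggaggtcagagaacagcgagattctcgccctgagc
MAGEB2, chrX:30215313-30215612, plus strand: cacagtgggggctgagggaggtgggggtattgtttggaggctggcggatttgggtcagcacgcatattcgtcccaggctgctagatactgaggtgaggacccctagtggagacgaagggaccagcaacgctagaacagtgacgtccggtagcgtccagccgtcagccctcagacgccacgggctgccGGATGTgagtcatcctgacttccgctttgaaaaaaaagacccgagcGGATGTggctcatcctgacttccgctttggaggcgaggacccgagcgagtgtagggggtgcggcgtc
MAGEC2, chrX:142205241-142205540, minus strand: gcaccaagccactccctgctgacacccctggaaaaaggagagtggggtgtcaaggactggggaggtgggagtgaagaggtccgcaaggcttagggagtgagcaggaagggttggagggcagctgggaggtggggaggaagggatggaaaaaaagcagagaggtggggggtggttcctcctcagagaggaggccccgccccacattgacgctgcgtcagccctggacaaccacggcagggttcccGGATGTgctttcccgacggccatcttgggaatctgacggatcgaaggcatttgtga
The window of MAGEA3 was identical to that of MAGEA6 over all 300 bases, with 19 CpG sites, although the levels of the 2 genes in B-CPAP were 9.22 and 9.44 times apart at 40 and 37 °C. GGATGT on either strand was in the windows of 10 of 10 MAGEA, 5 of 10 MAGEB, 2 of 3 MAGEC and 2 of 7 SSX genes, and in none of 12 GAGE, 6 PAGE and 5 XAGE genes. It was thus absent from both of the most abundant PAGE genes. Among the 53 genes it was in 63.6% of 11 that were on, 37.5% of 16 at a trace and 23.1% of 26 that were off in B-CPAP, against 12.2% of 27305 genes in all. The letters were chosen after the windows had been read, and near-identical genes share windows, so these shares are a description.

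The number of CpG sites overlapped between these groups. Its median was 13 (5 to 21) for the 11 genes that were on, 10.8 (5 to 17) for the 16 at a trace and 12 (2 to 15.3) for the 26 that were off, with a median of 14 over all genes. CCGGAAG, a longer ETS sequence, was in 0 of the 11 and in 12.2% of all genes. GGGCGG, the GC box, was in 45.5% of the 11, 37.5% of the 16 and 11.5% of the 26, against 48.3% of all genes. GCGGGAA, the E2F6 sequence, was in 1 of the 11 and in 7.82% of all genes. Each was searched on both strands, and matches to different sequences may overlap.

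The difference between lines was tested by limma on log2(TPM + 1), with temperature as a block, in genes with a mean of at least 1 TPM over the 4 libraries. Of 14911 genes tested, 9347 (62.7%) had an adjusted p under 0.05, 29.9% higher and 32.8% lower in B-CPAP. Among the protein-coding genes of that fit, 30.7% were higher. All 13 members that passed the filter on low values were higher in B-CPAP. Of them, 12 averaged under 1 TPM in TPC-1 and could pass only by being higher in B-CPAP, so this count is forced and is not a finding. A p-value gives no support under such a filter. Sizes are therefore given, with p-values only for PAGE1, whose call was not stable. For PAGE2 with PAGE2B the fitted difference was 8.67 ± 0.16 (SE), and for PAGE5 it was 8.34 ± 0.12. MAGEA3 with MAGEA6 averaged 1.09 TPM in TPC-1, just above the cut, so the filter left it little room for the other direction. Its difference was 6.41 ± 0.21. For MAGEB2 the difference was 7.36, for MAGEA10 6.76 and for MAGEA12 6.59. It was 5.58 for CTAG2, 4.41 for MAGEA1, 3.88 for SSX1 and 3.63 for MAGEC2. It was 2.48 for MAGEA8 and 1.84 for MAGEA11. PAGE1 had the smallest difference, 1.34 ± 0.35 (limma adjusted p = 0.0222), and its adjusted p was 0.0725 without B-CPAP at 40 °C, 0.121 without TPC-1 at 40 °C and 0.0802 without TPC-1 at 37 °C. These log2 values rest on the added 1 TPM wherever TPC-1 is at 0 and are no fold change of the transcript. With 1 residual degree of freedom per gene, the p-values set the lines apart against how their difference varied between temperatures.

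A comparison that needs no filter gave the same direction. On in B-CPAP and off in TPC-1 were 11 of the 61 genes (18.0%), or 11 of the 40 summed members (27.5%). Of all protein-coding genes 1.99% had this pattern. Of the 19884 that are no members, 385 (1.94%) had it, and of 784 other protein-coding genes on the X chromosome, 36 (4.59%). In the opposite direction, on in TPC-1 and off in B-CPAP, there were 0 of the 61 genes against 192 (0.966%) of the other genes and 12 (1.53%) of those on the X chromosome.

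In B-CPAP, 4 members were higher at 40 than at 37 °C by more than counting error, and CTAG2 was lower. The 4 were PAGE2 with PAGE2B, MAGEA10, MAGEA3 with MAGEA6 and PAGE5. Of protein-coding genes at 1 TPM or more in both B-CPAP libraries, 44.4% were higher and 27.8% lower by that measure. For 8 of the 13 members that were on, counting error covered the difference. With 1 library per temperature in a line there is no test within a line, and the intervals given are exact 95% intervals that cover counting error only. In B-CPAP the sum of all families at 40 °C was 1.16 times that at 37 °C. By family the ratio was 1.27 for PAGE, 1.17 for MAGEC, 1.10 for MAGEA, 1.04 for MAGEB, 0.999 for SSX and 0.727 for CTAG. Of the 13 tested members, 0 were 2-fold apart on log2(TPM + 1) in B-CPAP and 0 in TPC-1. The background of all tested genes was 2.78% higher and 1.13% lower at 40 °C in B-CPAP, and 2.25% and 1.23% in TPC-1. Among tested protein-coding genes it was 1.13% higher and 0.0254% lower in B-CPAP, and 0.0846% and 0.0677% in TPC-1.

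PAGE2 with PAGE2B was 1.44 times as high at 40 °C as at 37 °C in B-CPAP (1.35 to 1.53, from 2251 and 1670 reads). MAGEA10 was 1.20 times as high (1.13 to 1.27), MAGEA3 with MAGEA6 1.10 times (1.03 to 1.16) and PAGE5 1.08 times (1.01 to 1.16). CTAG2 was lower at 40 °C, at 0.729 times its 37 °C level (0.623 to 0.851, from 278 and 407 reads). For the other 8 members that were on the interval included 1, among them MAGEB2 at 1.03 (0.965 to 1.10), MAGEA12 at 1.01 (0.937 to 1.09) and PAGE1 at 2.13 (0.741 to 6.93). In all, 4 of 13 members had an interval above 1 and 1 below 1. Among 11064 protein-coding genes at 1 TPM or more in both B-CPAP libraries these shares were 44.4% and 27.8%, so both counts of members lie under the background. The median log2(TPM + 1) difference of the 13 was 0.12, from -0.45 for CTAG2 to 0.70 for PAGE1, beside a median of 0.09 over all tested genes.

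**Figure D5:**
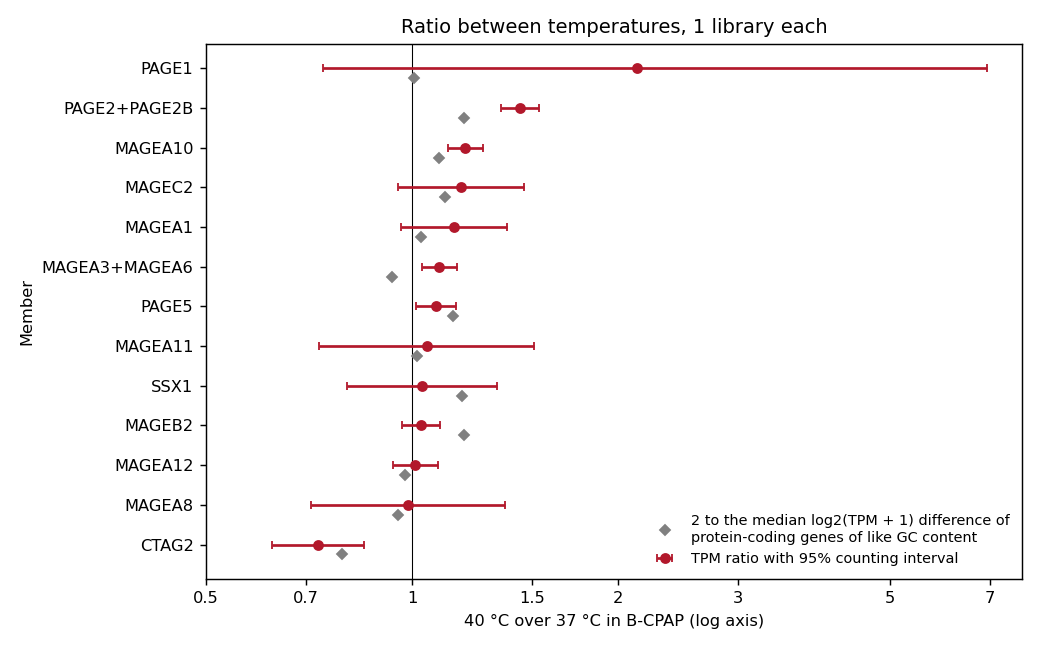
Ratio of TPM at 40 °C to TPM at 37 °C in B-CPAP for the 13 members that were on, with exact 95% intervals for counting error, and grey diamonds for the median of tested protein-coding genes of like GC content. PAGE2 with PAGE2B lies above its diamond at 1.44, and CTAG2 at 0.729 lies close to its own.

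GC content moved with the difference between the B-CPAP libraries over the whole table, with a Spearman correlation of -0.82 across 11823 tested protein-coding genes, which are not independent. Over the 13 members it was -0.38, with a Pearson correlation of -0.60. CTAG2 had the highest GC content, 64.8%, and tested protein-coding genes of like GC content had a median difference of -0.34, beside -0.45 for CTAG2. After adjustment for the trend with GC content the CTAG2 difference was -0.02. PAGE2 with PAGE2B had the lowest GC content, 46.0%, where genes of like GC content had a median of 0.25. Its difference was 0.52 before and 0.39 after that adjustment, and it lies within the central 95% of those genes (-0.16 to 0.685), as do 12 of the 13 members within theirs, all but PAGE1. For MAGEA3 with MAGEA6 the difference was 0.13, and 0.33 after adjustment, but -0.05 when each library was centred on its median. PAGE5 had 0.12, and 0.04 after adjustment, but -0.07 after centring. The sign of both thus depends on the scaling. Centring moved all B-CPAP differences by -0.19, after which MAGEA10 stood at 0.07 and PAGE2 with PAGE2B at 0.34.

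In TPC-1 at most 21 reads fell on all families in a library, so little can be measured there. The ratio of 40 to 37 °C for MAGEA3 with MAGEA6 was 3.86, from 18 and 5 reads, with an interval of 1.35 to 13.0. Most of the reads at 40 °C were assigned to MAGEA3, with 12 at 40 °C and 1 at 37 °C, and MAGEA6 had 6 and 4. This was the 1 of 6 members with a TPC-1 read whose interval left out 1. Among the 16 members that were not on but had B-CPAP reads, the 1 whose interval left out 1 was MAGEA4. It had 0 reads at 40 °C and 9 at 37 °C, with an upper bound of 0.54 for the ratio. No share of all genes was taken in TPC-1 or at such low levels. Both members were thus picked from several without a background, and neither count is a finding.

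Over both lines, limma with the line as a block called 0 of 14911 genes (0%) between 40 and 37 °C, with 2904 at an unadjusted p under 0.05. Of the 13 members, limma called 0, and 0 had an unadjusted p under 0.05. The largest difference was 0.52 ± 0.21 (SE) for MAGEA3 with MAGEA6, with a limma adjusted p of 0.264. Fitted to protein-coding genes alone, limma gave it an adjusted p of 0.0494, and that fit called 1349 genes. Over the other alternatives its limma adjusted p ran from 0.0791 to 1. PAGE2 with PAGE2B had 0.26 ± 0.16 (limma adjusted p = 0.395), with TPC-1 at 0 in both libraries.

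Some other cancer-testis genes on the X chromosome were also on in B-CPAP and off in TPC-1, 7 of 32 listed. This pattern was seen in 1.99% of all protein-coding genes, and in 4.59% of those on the X chromosome that are no members. The listed genes were not taken out of either background. The 7 were CSAG1, CSAG2, CSAG3, CT45A10, SAGE1, SPANXB1 and PASD1, the last at 1.60 and 1.65 TPM in B-CPAP at 40 and 37 °C. Of the 32 genes, 16 were at 0 in all 4 libraries and 7 passed the filter, the same without PASD1 and with the interleukin receptor gene IL13RA2. All 7 tested were higher in B-CPAP with a median difference of 3.53, but they passed through their B-CPAP values, and the background was 29.9%. CT45A10 was at 18.5 and 13.5 TPM in B-CPAP and at 0 in TPC-1. IL13RA2 was at 16.8 and 10.9 TPM in B-CPAP and 0.213 and 0.305 TPM in TPC-1. Of 22 listed cancer-testis genes on autosomes 9 were tested, and 2 were higher, 2 lower and 5 not called, beside 29.9% higher and 32.8% lower of all tested genes. Their median was 0.14. PRAME, an autosomal cancer-testis gene, was at 7.51 and 7.99 TPM in B-CPAP and 7.73 and 6.30 TPM in TPC-1 at 40 and 37 °C. TSSK6, a testis kinase, was higher in B-CPAP by 0.80 and CEP55 lower with -1.01 (limma adjusted p at most 0.0107). CABYR, a calcium-binding sperm protein, had 1.41 and DKKL1 had -0.94. CABYR passed the filter through B-CPAP alone and DKKL1 through TPC-1 alone, so that their directions were fixed by it.

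Of 8 genes that write, read or remove DNA methylation, 6 were tested, while DNMT3L was at 0 in all 4 libraries and TET1 averaged under 1 TPM. Of the 6, 2 were higher and 3 lower, beside 29.9% and 32.8% of all tested genes. DNMT1, the maintenance methyltransferase, and its partner UHRF1 were higher in B-CPAP by 0.38 and 0.63, while TET2, TET3 and DNMT3A were lower with differences of -1.65, -1.52 and -0.62 (limma adjusted p at most 0.0294). DNMT3B, a de novo methyltransferase, was not called, and the list's median was -0.34 beside -0.05 over all tested genes. Of 20 repressors reported at cancer-testis genes, 8 were higher, 5 lower and 7 not called, so that about as large a share was called as over all tested genes (62.7%), and their median was 0.06. The lysine demethylase KDM5B had -1.98, at 9.80 and 8.74 TPM in B-CPAP and 38.6 and 40.6 TPM in TPC-1 at 40 and 37 °C, and the histone methyltransferase SETDB1 had -1.17. L3MBTL2 (1.14) and SUV39H2 (1.08) were the highest of those that rose, and TASOR of the HUSH complex had -0.97. E2F6 (0.68), SUV39H1 (0.64) and EHMT2 (0.58) were also higher in B-CPAP (limma adjusted p at most 0.00894 for these 8). Of the activators, CTCFL, a germline paralogue of CTCF, was at 0 in all 4 libraries, SP1 (-0.996) and ETS2 (-0.41) were lower and ELK1 (0.85) higher in B-CPAP (limma adjusted p at most 0.0189), and ETS1 was not called, beside 62.7% of all tested genes called.

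Of 7 ligase genes whose products MAGE proteins bind, 5 were tested, and TRIM31 and RNF125 averaged under 1 TPM. TRIM28, the ligase bound by MAGEA3, MAGEA6 and MAGEC2, was at 510 and 652 TPM in B-CPAP and 408 and 486 TPM in TPC-1 at 40 and 37 °C, a difference of 0.37 between lines (limma adjusted p = 0.00573). The ligase genes PJA1 (1.65), SKP2 (0.45) and TRIM27 (0.43) were also higher in B-CPAP (limma adjusted p at most 0.0215), so that 4 of 5 tested were higher, beside 29.9% of all tested genes, and 1, FBXO7, was not called. The median of the 5 was 0.43. Of 11 listed type II MAGE genes, described as the ubiquitous branch of the family, 7 were tested. MAGEE2 was at 0 in all 4 libraries, and MAGED4, MAGEL2 and NDN averaged under 1 TPM. MAGEH1 (4.67), MAGED1 (1.72) and MAGED2 (1.08) were higher and MAGEF1 (-0.44) was lower in B-CPAP (limma adjusted p at most 0.00912). The other 3 tested were not called, beside 62.7% of all tested genes called. MAGEH1 passed the filter through B-CPAP alone, so that its direction was fixed by it. MAGED1 was at 471 and 547 TPM in B-CPAP and 152 and 154 TPM in TPC-1 at 40 and 37 °C. Of 6 SSX partners, the Polycomb genes RING1 (0.94) and BMI1 (0.68) and SS18L1 (0.57) were higher, RNF2 (-0.76) was lower (limma adjusted p at most 0.0469) and SS18 and SMARCA4 were not called, again beside 62.7% of all tested genes called. The medians were 0.46 for the type II MAGE genes and 0.33 for the SSX partners. None of these lists holds a gene called by limma at 40 against 37 °C, where 0 of all genes were called.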

How the data were processed

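Total RNA was made into libraries with a TruSeq kit that does not mark strand, per the labels' protocols, so where genes overlap on the 2 strands their reads cannot be separated. The authors deposited TPM for 58884 gene IDs in 4 libraries, 1 per line and temperature. GRCh38 was the genome build, and featureCounts 2.0.0, Trimmomatic 0.38, MultiQC and FastQC were the tools, per the submitters' processing notes. Not given in the sources used here are the aligner, the annotation release and the treatment of reads matching several genes. GENCODE 29, which held 58611 (99.5%) of the IDs, gave gene types, coordinates, exon lengths and GC content. TPM times exon length fell on whole reads within 0.02 for 90.7 to 92.2% of values up to 20 reads, which gave the estimated reads and the exact (Clopper-Pearson) 95% intervals. PCR copies are not independent molecules, so intervals cover counting error only.

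Copies were summed by symbol, MAGEA3 was summed with MAGEA6, and all GAGE genes were summed. Values were analysed as log2(TPM + 1) with limma 3.58.1 (R 4.3.3), an intensity trend, two-sided tests, Benjamini-Hochberg adjustment over the 14911 genes that averaged 1 TPM or more, and the other factor as a block. The steps were tested on simulated data. The p-values measure only the spread between these libraries, which may be technical. The members, lists, tests and named genes (every member with its values, and up to 8 called genes of each list by size of the difference) were chosen with earlier results of these data known. Alternatives covered the pseudocount, filter, scaling, GC content, summing of copies, limma settings and leaving out each library. Identity was taken from translated GENCODE 29 reading frames, and unique words from its transcripts. Another 5 genes with matching symbols are not protein-coding, with at most 0.3 TPM, and 1 has no GENCODE 29 entry; these were left out.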

Additional observations from a re-analysis of the deposited data

Results flagged for a closer look

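PAGE1 and SSX5 moved in opposite directions in the lines at 40 against 37 °C. For PAGE1 the log2(TPM + 1) difference was 0.70 in B-CPAP (2.60 TPM at 40 °C and 1.22 TPM at 37 °C) and -0.32 in TPC-1 (0 TPM at 40 °C and 0.251 TPM at 37 °C). For SSX5 it was -0.32 in B-CPAP (0.963 and 1.44 TPM) and 0.16 in TPC-1 (0.117 and 0 TPM). The difference between the lines was not tested, since each group holds 1 library. On the TPC-1 side each value rests on 1 estimated read.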

How the results depend on the processing

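The direction of the line difference held wherever a member was fitted, though the filter fixed it for 12 of the 13 tested members. MAGEA8, MAGEA11 and PAGE1 were not tested at a mean TPM of at least 5, and unsummed copies were fitted as single genes. PAGE1 lost its call without B-CPAP at 40 °C, TPC-1 at 40 °C or TPC-1 at 37 °C and with no filter (limma adjusted p 0.0725, 0.121, 0.0802 and 0.062). Leaving out 1 library gave 2908 to 5719 called genes between the lines, against 9347, and 12 to 13 called members. These fits also lack the block, and dropping the block alone gave 7468. The comparison of temperatures called 0 genes, but 2 with a pseudocount of 5 (MIR3124 and RNU6-26P, neither a member, named after their values were seen), 64 after median centring, 863 at a mean TPM of at least 5 and 1349 with protein-coding genes alone, where 1 member, MAGEA3 with MAGEA6, was called; the cause was not tested. Within lines, PAGE1 in B-CPAP was apart at 1.5-fold or with a pseudocount of 0.1, so that 1 member was counted. In TPC-1, 1 member (MAGEA3 with MAGEA6) was apart at 1.5-fold, and 2 (with PAGE1) with a pseudocount of 0.1. Median centring reversed the B-CPAP differences of MAGEA3 with MAGEA6 (-0.0541) and PAGE5 (-0.0696), whose intervals left out 1. It also changed the sign for MAGEA11 (-0.1346), MAGEA12 (-0.1694), MAGEB2 (-0.1437) and SSX1 (-0.1405), whose intervals included 1. Quantile normalization changed the sign for MAGEA11 and SSX1, and adjustment for GC content for MAGEA8, MAGEB2 and SSX1. Leaving out mitochondrially encoded genes changed it for MAGEA8. With a threshold of 0.5 or 5 TPM, 17 or 10 members were on in B-CPAP and 0 in TPC-1. Without mitochondrially encoded genes the summed level in B-CPAP was 1951 TPM at 40 °C and 1640 TPM at 37 °C. No paired analysis was possible because the labels carry no replicate numbers to pair by; the block in the fits is the other factor, temperature or line. Leaving out a library from the comparison of temperatures leaves 1 line's own difference, a value with no test.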
